A study of Homo sapiens with 6 samples.

Results

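The mitochondrial chromosome (chrM, GRCh38, 16569 nt) carried 580 of the 244645 IR-PAR-CLIP clusters of the series, 576 of them in the 5 IGF2BP3 libraries and 4 in the IgG library. Every cluster placed on chrM, on either strand, was a member, so the choice used position alone and no measured value. Each member was assigned to the mitochondrial gene of GENCODE release 44 with which it shared the most bases on the same strand, or, with no such gene, to the gene on the opposite strand (antisense), or to no gene.

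HCT116, a human colorectal carcinoma line, carried the Tet-OsTIR1-PURO genotype in all samples and received 100 µM 4-thiouridine (4sU) for 15 h before crosslinking at 365 nm. IGF2BP3, an RNA-binding protein of the cytoplasm, was precipitated from lysates digested with RNase I at 0.05/0.025, 0.05/0.05 or 0.1/0.025 U/µL or with RNase T1 at 0.25/0.25 or 1/1 U/µL, the first value in the lysate and the second on the beads, and a non-specific IgG was used at RNase I 0.1/0.025. The antibody is described as recognising the paralog IGF2BP2 in part. Each condition was 1 library, so no difference between conditions had a replicate check and no p-value is given. The RNase I 0.05/0.05 and RNase T1 1/1 libraries were electroeluted from the gel and the other 3 IGF2BP3 libraries came from crushed gel, so the concentration on the beads for RNase I, and the concentration for RNase T1, cannot be told apart from extraction. RNase I 0.05/0.025 and 0.1/0.025 shared the extraction and, by their labels, differed in the lysate concentration. For the crushed-gel library taken here as 0.1/0.025 the methods print another lysate concentration, and the label was used. The extraction of the IgG library is not given in the sources used here.

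Human mitochondrial DNA is transcribed in both directions into long precursors. The heavy-strand transcripts hold both rRNAs, most tRNAs and all but 1 of the protein messages, and here they lie on the plus strand, while the light-strand transcripts hold the remaining tRNAs and MT-ND6 and lie on the minus strand. Most messages and rRNAs are bordered by tRNAs, and excision of the tRNAs releases them. These RNAs are made and translated inside the organelle, apart from the cytoplasm. The annotation held 37 genes on chrM, 2 for rRNAs, 22 for tRNAs and 13 for proteins, with 8 tRNA genes and MT-ND6 on the minus strand.

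In PAR-CLIP, crosslinked 4sU is read as C, so T-to-C conversion events mark contacts with protein. The sequences below are those of the deposited clusters, as DNA letters 5′ to 3′ on the stated strand, and all 580 member sequences were equal to the reference chromosome. The clusters at MT-TL1, the gene of tRNA-Leu(UUR) between MT-RNR2 and MT-ND1, are shown because they held the most reads and few conversions, with the bases of MT-TL1 in capitals.
RNase I 0.1/0.025, chrM:3113-3265, plus strand: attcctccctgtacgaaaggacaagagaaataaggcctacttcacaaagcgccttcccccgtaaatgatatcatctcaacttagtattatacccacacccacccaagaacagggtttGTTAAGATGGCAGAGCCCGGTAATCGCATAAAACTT
RNase I 0.1/0.025, chrM:3267-3371, plus strand: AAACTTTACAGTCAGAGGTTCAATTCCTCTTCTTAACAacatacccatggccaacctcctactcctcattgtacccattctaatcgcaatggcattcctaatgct
RNase T1 1/1, chrM:3277-3347, plus strand: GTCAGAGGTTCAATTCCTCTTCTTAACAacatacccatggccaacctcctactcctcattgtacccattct

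The 4 IgG members are shown as the background of the assay on this chromosome, and the RNase T1 0.25/0.25 clusters in MT-ND4 and on the minus strand of the control region are shown because every IGF2BP3 library had clusters there. Capitals mark bases covered by a cluster in all 5 IGF2BP3 libraries.
IgG, MT-RNR1, chrM:649-693, plus strand: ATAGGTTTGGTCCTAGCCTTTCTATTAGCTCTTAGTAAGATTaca
IgG, MT-RNR1, chrM:1441-1475, plus strand: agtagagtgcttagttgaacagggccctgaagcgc
IgG, MT-TV, chrM:1611-1654, plus strand: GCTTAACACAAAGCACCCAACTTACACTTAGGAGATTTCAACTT
IgG, MT-RNR2, chrM:1758-1795, plus strand: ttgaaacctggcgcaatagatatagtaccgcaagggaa
MT-ND4, chrM:11711-11825, plus strand: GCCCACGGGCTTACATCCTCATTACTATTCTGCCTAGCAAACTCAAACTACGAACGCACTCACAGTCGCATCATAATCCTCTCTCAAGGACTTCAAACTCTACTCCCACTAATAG
Control region, chrM:198-268, minus strand: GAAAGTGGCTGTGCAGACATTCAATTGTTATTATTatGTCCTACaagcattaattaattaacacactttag

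Mitochondrial RNA was a small part of each IGF2BP3 library and a large part of the IgG library. The clusters on chrM numbered 95 with RNase I 0.05/0.025, 88 with 0.05/0.05, 100 with 0.1/0.025, 124 with RNase T1 0.25/0.25 and 169 with RNase T1 1/1. They held 16204 of 670712 cluster reads, 27824 of 2362467, 14073 of 803490, 4416 of 182448 and 11383 of 1157194 in the same order. Their share of cluster reads was 2.42% with RNase I 0.05/0.025 (95% Wilson interval 2.38 to 2.45) and 2.42% with RNase T1 0.25/0.25 (2.35 to 2.49). It was 1.75% with RNase I 0.1/0.025 (1.72 to 1.78), 1.18% with RNase I 0.05/0.05 (1.16 to 1.19) and 0.984% with RNase T1 1/1 (0.966 to 1.00). In IgG the 60 reads of 4 clusters were 18.5% of 324 cluster reads (14.7 to 23.1), above every IGF2BP3 library, and with conversion events in place of reads it was 8.91%. Without clusters found exactly in the nuclear genome the IgG share was 11.7%. With only clusters of more than 0.5 events per read, IgG had no mitochondrial cluster left. All intervals cover counting error only.

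The electroeluted library of each enzyme, which was also the deepest, had the lower mitochondrial share. RNase I 0.05/0.05 held 3.52 times the cluster reads of 0.05/0.025 but 1.72 times its mitochondrial reads, and the share was 2.05 times as high with 0.05/0.025. RNase T1 1/1 held 6.34 times the cluster reads of 0.25/0.25 and 2.58 times its mitochondrial reads, with the share 2.46 times as high at 0.25/0.25. The part of depth, extraction and concentration in these ratios was not tested. Between the RNase I libraries from crushed gel, the share with 0.05/0.025 was 1.38 times that with 0.1/0.025.

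IgG was matched to RNase I 0.1/0.025 on digestion only, and between these libraries mitochondrial reads differed less than other reads. RNase I 0.1/0.025 held 235 times the mitochondrial reads of IgG (182 to 302, from the counting error of both libraries) and 2990 times the other cluster reads (2650 to 3374). The share in IgG was 10.6 times that in the matched library.

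**Figure D1:**
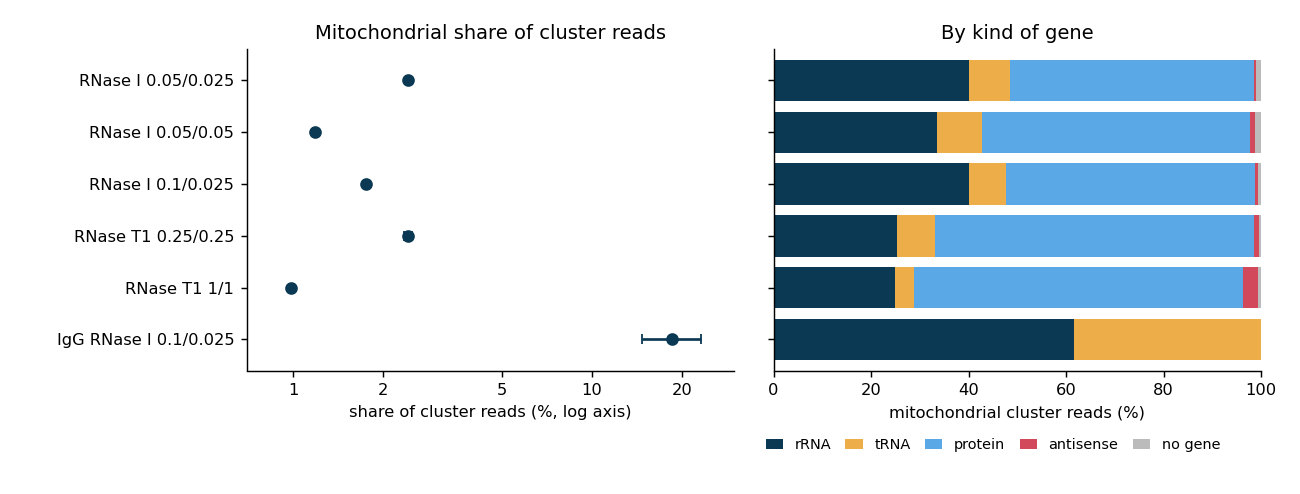
Left, share of all cluster reads that lay on chrM in each library (%, log axis), as points with 95% Wilson intervals, which are narrower than the points in most IGF2BP3 libraries. Right, the mitochondrial reads divided by kind of gene (%). IgG sits at 18.5% and the IGF2BP3 libraries between 0.984% and 2.42%, and IgG holds rRNA and tRNA reads only.

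Clusters spread over most of the heavy-strand transcript. On the plus strand they covered 77.1% of the chromosome with RNase I 0.05/0.025, 86.4% with 0.05/0.05, 77.9% with 0.1/0.025, 43.2% with RNase T1 0.25/0.25 and 60.3% with RNase T1 1/1. On the minus strand the coverage was 5.05%, 14.2%, 5.55%, 2.17% and 5.35%. Over all 5 libraries 15027 nt (90.7%) of the plus strand were covered in at least 1 library and 5871 nt (35.4%) in all, against 2817 nt and 184 nt of the minus strand.

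Mitochondrial clusters were longer and deeper than the others. Their median length was 74.0, 72.5 and 72.5 nt in the RNase I libraries, in the order above, against 52, 54 and 53 nt for other clusters, and 48.5 and 48.0 nt with RNase T1 0.25/0.25 and 1/1, against 37 and 33 nt. The longest reached 1715 nt, across MT-ND4L and MT-ND4, with RNase I 0.05/0.05, and 267 nt in MT-CO1 with RNase T1 0.25/0.25. The median cluster held 44, 33, 37, 18 and 36 reads, against 8, 9, 8, 8 and 10 elsewhere.

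Per covered nucleotide the reads were 1.19, 1.67, 1.02, 0.588 and 1.05 on chrM and 0.267, 0.350, 0.270, 0.306 and 0.502 elsewhere. RNase T1 cleaves after G, and 79.0% of mitochondrial clusters ended in G with RNase T1 0.25/0.25 and 87.6% with 1/1, against 91.8% and 94.7% of other clusters. With RNase I, which has no such preference, between 10.5% and 15.9% of mitochondrial clusters ended in G.

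Messages and rRNAs shared the mitochondrial reads in all 5 IGF2BP3 libraries, and the IgG reads lay on rRNA and tRNA alone. Clusters assigned to protein genes held 50.1% of mitochondrial reads with RNase I 0.05/0.025 (49.3 to 50.9), 55.0% with 0.05/0.05 (54.4 to 55.6), 51.1% with 0.1/0.025 (50.3 to 52.0), 65.5% with RNase T1 0.25/0.25 (64.1 to 66.9) and 67.5% with RNase T1 1/1 (66.7 to 68.4). The rRNA share was 40.02% (39.3 to 40.8), 33.6% (33.1 to 34.2), 40.2% (39.4 to 41.0), 25.3% (24.03 to 26.6) and 24.9% (24.1 to 25.7) in the same order. The tRNA share ran from 3.89% with RNase T1 1/1 to 9.10% with RNase I 0.05/0.05. With reads split over the genes a cluster spans, which gives tRNAs their part of the clusters at MT-TL1, it ran from 8.21% with RNase T1 1/1 to 18.7% with RNase I 0.05/0.025. The rRNA share was lower in both RNase T1 libraries than in the 3 RNase I libraries, beyond counting error. Counted in clusters in place of reads, the order was not kept (10.5%, 10.2%, 14% of clusters with RNase I, 20.2% and 13.02% with RNase T1). Among clusters with more than 0.5 events per read it was not kept either, with 0%, 22.7%, 9.2%, 10.5% and 16.6% of reads on rRNA.

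In IgG, 37 of 60 reads were on rRNA (61.7%, 49.0 to 72.9) and 23 on a tRNA (38.3%, 27.1 to 51.0). No IgG read lay in a cluster of a protein gene, which at 60 reads allows a share of up to 5% (3 counts).

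The rRNA genes were covered in every IGF2BP3 library. Gene levels are given as CPM (reads scaled to a library total of 1000000 cluster reads) per kb of gene, with the reads of a cluster spread evenly over its length. MT-RNR1, the rRNA of the small ribosomal subunit, was at 3165, 1817, 2002, 2259 and 942 CPM per kb. MT-RNR2, the rRNA of the large subunit, was at 3491, 1260, 2614, 2465 and 839. Both were lowest in the RNase T1 1/1 library. Without the clusters that overlap MT-TL1, MT-RNR2 was at 1955, 1161 and 1514 in the RNase I libraries and the same as before with RNase T1. In MT-RNR1, 572 to 1162 held 1542 reads with RNase I 0.05/0.025 and 577 to 1158 held 3012 reads with RNase I 0.05/0.05, as single clusters that ran across MT-TF into the rRNA.

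All 13 protein genes carried clusters in at least 4 of the 5 IGF2BP3 libraries, and 12 in all 5. MT-ATP8, a short subunit gene of the ATP synthase, was the exception, with none in RNase T1 0.25/0.25. In that library MT-ND6 was touched only by the edge of the MT-TE cluster and had no cluster assigned to it. Among the subunits of complex I, which takes electrons from NADH, MT-ND1 was at 2542, 1340, 1785, 2570 and 626 CPM per kb, MT-ND4 at 921, 609, 802, 2040 and 834, and MT-ND5 at 320, 191, 236, 354 and 316. MT-ND5 was below MT-ND4 in all 5. In all libraries but RNase T1 1/1, most of the MT-ND1 level came from the clusters that begin in MT-TL1. Without them it was at 410 with RNase I 0.05/0.025, 309 with 0.1/0.025, 459 with RNase T1 0.25/0.25 and 327 with RNase T1 1/1, below MT-ND4 in each, whereas with them it was above MT-ND4 in all libraries but RNase T1 1/1. With RNase I 0.05/0.05 the only cluster of MT-ND1 begins in MT-TL1, so no such level could be given. MT-ND3 was lower still, between 81.1 and 198.

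Of the cytochrome c oxidase genes (complex IV), MT-CO1 was at 1241, 706, 893, 1749 and 743 CPM per kb and MT-CO3 at 1483, 820, 1108, 2139 and 779, and MT-CO2 ran from 500.3 to 899.5. MT-CO3 lay above MT-CO1, and MT-CO1 above MT-CO2, in all 5. MT-CYB, the cytochrome b of complex III, was at 851, 460, 579, 725 and 465. MT-ATP6, of the ATP synthase (complex V), ran from 583 to 1714.

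MT-ND6, the protein gene of the minus strand, was the lowest of the 13 by its median over libraries. It was at 120, 86.8, 106, 12.03 and 78.1 CPM per kb. The 12.03 of RNase T1 0.25/0.25 came from the MT-TE cluster at 14672 to 14730, which covered 0.381% of MT-ND6. Summed over genes, complex IV lay above complex I in all 5 libraries, at 1227 against 846, 700 against 492, 897 against 652, 1658 against 1143 and 697 against 492 CPM per kb.

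**Figure D2:**
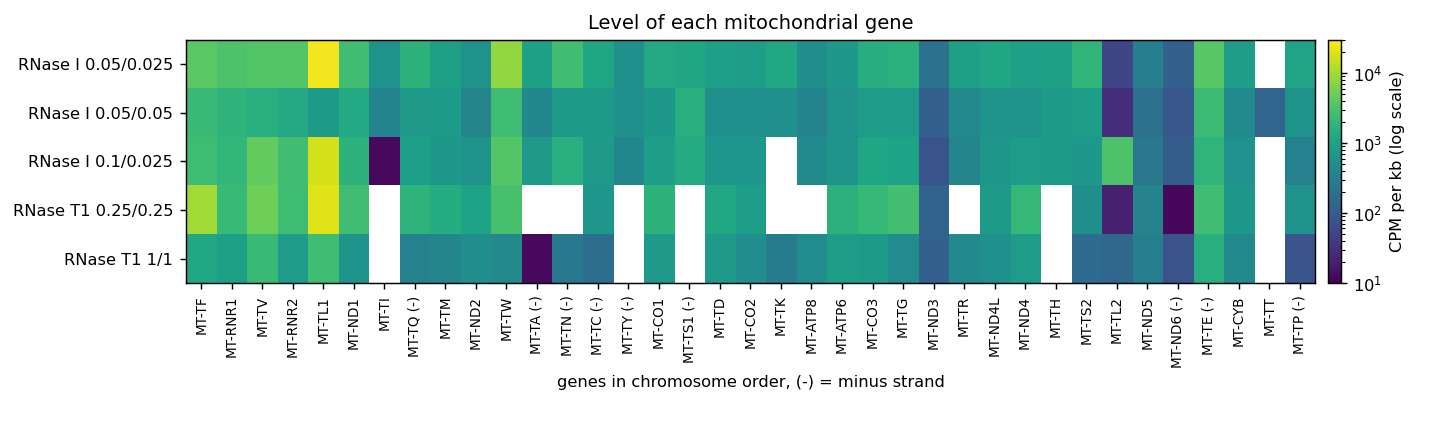
CPM per kb (log colour scale) of the 37 mitochondrial genes in chromosome order, with a row for each IGF2BP3 library. White cells are genes with no same-strand cluster. MT-TL1 is the brightest column in RNase I 0.05/0.025, RNase I 0.1/0.025 and RNase T1 0.25/0.25, MT-ND3 is a dark column throughout, and all white cells but that of MT-ATP8 are tRNA genes, most of them in the RNase T1 libraries.

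Transfer RNA genes varied widely between libraries. Of 22, 13 carried a cluster in all 5 IGF2BP3 libraries and 21 in at least 2, and the exception had clusters in RNase I 0.05/0.05 only. Those with a cluster numbered 21, 22 and 20 in the RNase I libraries, 13 with RNase T1 0.25/0.25 and 17 with RNase T1 1/1. Because tRNA genes are short, part of their reads lay in clusters that continue into the neighbouring gene.

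MT-TF (tRNA-Phe), which precedes MT-RNR1, was at 3890, 2191, 2500 and 9787 CPM per kb in the first 4 libraries and at 1196 with RNase T1 1/1. MT-TV (tRNA-Val), between the rRNAs, was at 3471, 1540, 4447, 5163 and 2210. MT-TE (tRNA-Glu), on the minus strand, was at 3732, 2445, 1863, 2609 and 1527. These 3 genes ranked within the first 8 of 37 in every library.

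MT-TW (tRNA-Trp) was less even, at 8272, 2502, 3569, 2902 and 432 CPM per kb. MT-TL2 (tRNA-Leu(CUN)) was at 3183 with RNase I 0.1/0.025 and between 20.1 and 150 in the other 4 libraries. Over the 37 genes, Pearson's r between libraries ran from 0.23 to 0.97 and Spearman's rho from 0.47 to 0.89 over 10 pairs, as a description across genes, which are not independent replicates and differ in length. The lowest r was that of RNase I 0.05/0.05 with 0.1/0.025.

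MT-TL1 stood out in level and in conversion. It was at 25795 CPM per kb with RNase I 0.05/0.025, 785 with 0.05/0.05, 18038 with 0.1/0.025, 20369 with RNase T1 0.25/0.25 and 2599 with RNase T1 1/1. It was the first of the 37 genes in every library but RNase I 0.05/0.05, where it ranked 13 and where the reads of a cluster of 1004 nt were spread evenly. The electroeluted library of each enzyme had the lower level. The clusters that overlapped it held 26.6% (26.0 to 27.3), 12.8% (12.4 to 13.2), 25.8% (25.1 to 26.6), 14.9% (13.9 to 15.96) and 5.03% (4.64 to 5.44) of mitochondrial reads.

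With RNase I 0.05/0.025 the cluster at chrM:3266-3369 held 2257 reads and that at chrM:3109-3263 held 2057, and no cluster of the whole library held more reads than the first. With RNase I 0.1/0.025 the corresponding clusters, printed above, held 1832 and 1802 reads. In both libraries the pair met inside MT-TL1, at a gap of 2 nt in the former and 1 nt in the latter. The cluster of RNase T1 0.25/0.25 ran from 3249 to 3380 with 657 reads, and that of RNase T1 1/1 from 3277 to 3347 with 572. With RNase I 0.05/0.05 a cluster of 3179 reads ran from 3262 through MT-ND1 to 4265, and another of 368 reads ended at 3230, the first base of the tRNA gene.

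**Figure D3:**
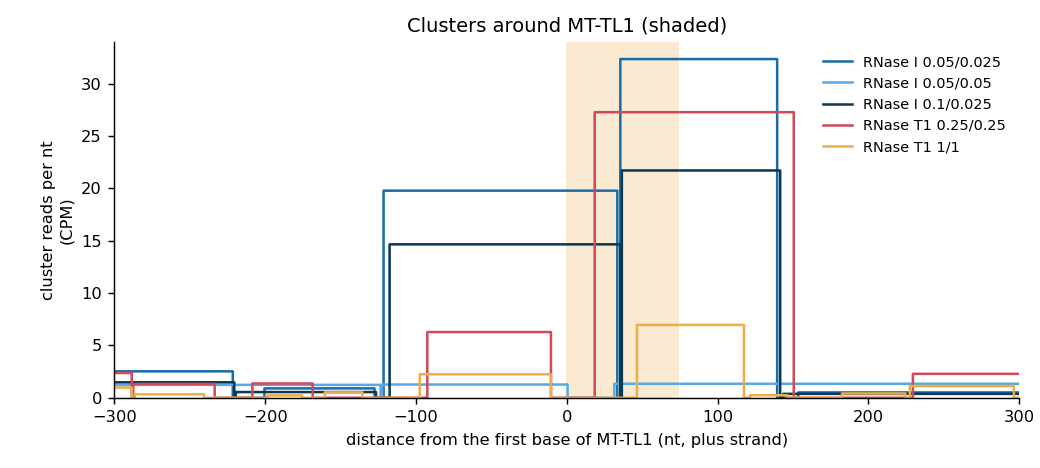
Cluster reads per nt, in CPM, against the distance from the first base of MT-TL1 (nt), with reads spread evenly over each cluster and MT-TL1 shaded. The RNase I 0.05/0.025 and 0.1/0.025 libraries change from one cluster to the next inside the shaded gene, the RNase T1 clusters start inside it, and RNase I 0.05/0.05 stays low across it.

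By events per read, conversion at MT-TL1 was low for such deep clusters. Its clusters had 0.0438, 0.217, 0.0432, 0.0350 and 0.0717 conversion events per read in the 5 libraries. As the percent of T readings converted, the values were 1.19%, 3.27%, 0.916%, 0.466% and 5.17%, against 5.74%, 7.37%, 6.03%, 4.51% and 6.02% in the rest of chrM. On that scale the RNase T1 1/1 cluster lay near the rest of chrM. The 0.217 events per read of RNase I 0.05/0.05 pooled the cluster that runs through MT-ND1 (0.179) with that of 368 reads (0.546). That library was thus not measured over the same stretch as the others. The 2257 reads at 3266 to 3369 carried 101 events and the 657 reads of RNase T1 0.25/0.25 carried 23. Among mitochondrial clusters of at least 100 reads, 9 of 124 (7.26%) had under 0.1 events per read, against 18 of 6583 (0.273%) elsewhere. Of the 9, 6 overlapped MT-TL1, and the other 3 lay on MT-TW (377 reads with RNase I 0.05/0.025 and 195 with 0.1/0.025) and MT-TL2 (181 reads with 0.1/0.025). None was from RNase I 0.05/0.05, where MT-TW had 0.144 events per read. Whether the reads came from mature tRNA or from precursors was not tested.

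**Figure D4:**
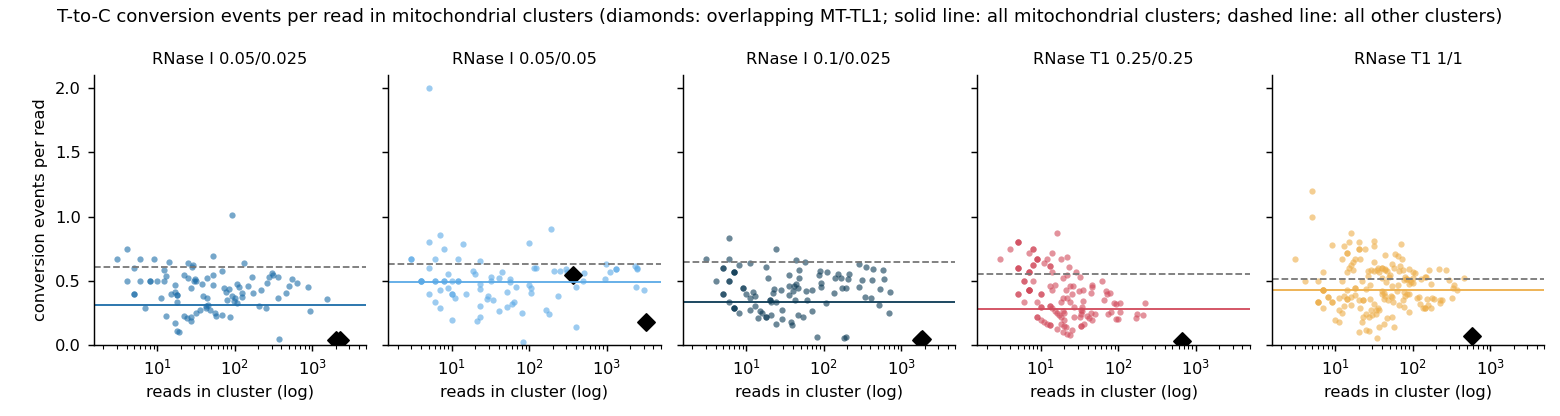
Conversion events per read against reads (log axis) for each mitochondrial cluster of the 5 IGF2BP3 libraries. Black diamonds overlap MT-TL1, the solid line is the ratio over all mitochondrial clusters and the dashed line that over all other clusters. The solid line lies below the dashed line in every library, and the diamonds lie at the lower right, apart from a cluster of 368 reads with RNase I 0.05/0.05.

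Conversion was lower on chrM as a whole. Events per read over all mitochondrial clusters were 0.313, 0.491, 0.335, 0.281 and 0.429, against 0.607, 0.635, 0.649, 0.554 and 0.512 for other clusters. Without the clusters at MT-TL1 the mitochondrial values were 0.411, 0.531, 0.436, 0.324 and 0.447, still below the other clusters in each library. Measured as the percent of T readings converted to C, the mitochondrial values were 5.03%, 6.89%, 5.08%, 3.89% and 6.01% against 7.37%, 8.02%, 8.07%, 6.22% and 5.65%. On that scale RNase T1 1/1 turned round, with more conversion on chrM than elsewhere.

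The electroeluted library of each enzyme had the higher mitochondrial events per read. The 4 IgG clusters had 0.3 events per read, close to those of the matched RNase I 0.1/0.025 library, while other IgG clusters had 0.697. By gene, MT-CO1 had 0.470, 0.593, 0.560, 0.368 and 0.470 events per read and MT-CYB 0.504, 0.614, 0.567, 0.384 and 0.437, while MT-RNR1 had 0.331, 0.436, 0.331, 0.303 and 0.425. By T readings this order held with RNase I and turned with RNase T1, where MT-CO1 was at 4.84% and 5.84%, MT-CYB at 4.29% and 5.46% and MT-RNR1 at 5.27% and 7.23%. MT-ND1, with the clusters from MT-TL1 included, was below MT-RNR1 in events per read in all 5 libraries, at 0.0865, 0.179, 0.102, 0.0814 and 0.242. By T readings it was below in all but RNase T1 1/1, where it was at 7.32% against 7.23%. Over all clusters of each kind, protein genes had 0.348, 0.507, 0.404, 0.270 and 0.443 events per read and rRNA genes 0.268, 0.484, 0.262, 0.291 and 0.393, so no single order held.

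Fewer mitochondrial clusters than others passed a conversion threshold. More than 0.5 events per read were found in 26 of 95 clusters with RNase I 0.05/0.025 (27.4%, against 69.0% of all clusters of the library), 38 of 88 with 0.05/0.05 (43.2%, against 74.2%), 33 of 100 with 0.1/0.025 (33.0%, against 75.5%), 33 of 124 with RNase T1 0.25/0.25 (26.6%, against 59.3%) and 67 of 169 with RNase T1 1/1 (39.6%, against 54.5%). In IgG it was 0 of 4, against 48.0% of all 25 clusters, and 4 clusters set no useful limit.

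The target criterion of the methods, more than 10 CPM and more than 0.5 conversions per read, gave a mixed picture. It was met by 22 mitochondrial clusters with RNase I 0.05/0.025 (23.2%, background 45.7%), 24 with 0.05/0.05 (27.3%, background 17.6%), 24 with 0.1/0.025 (24%, background 39.1%), 33 with RNase T1 0.25/0.25 (26.6%, background 59.3%) and 62 with RNase T1 1/1 (36.7%, background 21.3%), and by 0 of 4 in IgG (background 48.0%). The mitochondrial share was above the background in the electroeluted libraries and below it in the others. In those deep libraries 10 CPM corresponded to 23.6 and 11.6 reads, and in RNase T1 0.25/0.25 to 1.82 reads, so that there the CPM part removed no mitochondrial cluster.

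**Figure D5:**
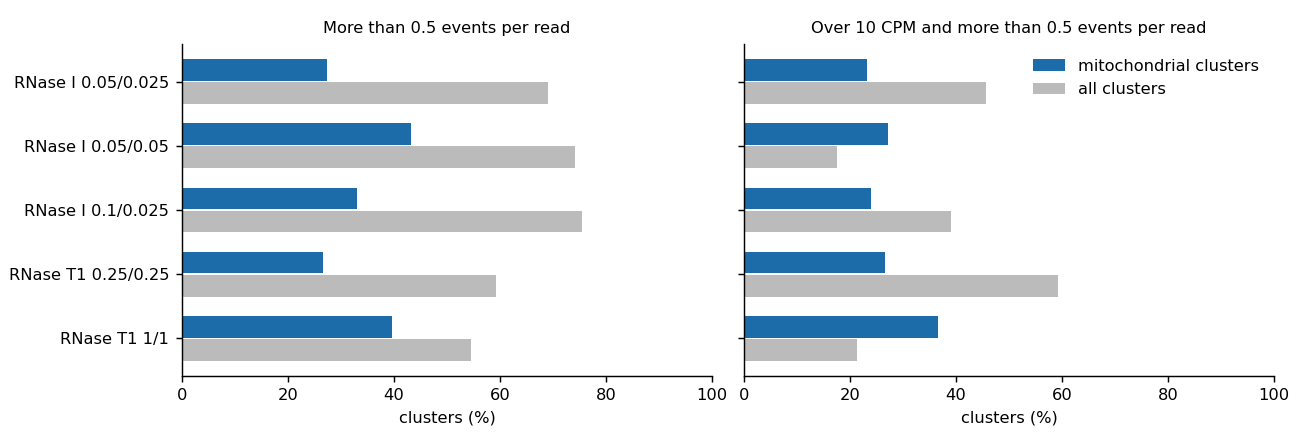
Percent of clusters with more than 0.5 conversion events per read (left) and with more than 10 CPM as well (right), for mitochondrial clusters and for all clusters of each IGF2BP3 library. On the left the mitochondrial bar is the shorter in every library (26.6% to 43.2%), and on the right it is the longer in RNase I 0.05/0.05 and RNase T1 1/1.

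By gene, at least 1 cluster met the criterion for 14, 23, 19, 12 and 19 of the 37 genes. MT-CO1, MT-ND4, MT-CYB and MT-ND5 had such a cluster in all 5 libraries, and each of the 13 protein genes in at least 2. Of the clusters that overlapped MT-ND5, 7 of 18, 5 of 13, 2 of 17, 4 of 10 and 7 of 16 met it. For MT-CO1 it was 3 of 7, 2 of 2, 5 of 5, 5 of 13 and 5 of 13. The background over all clusters was 45.7%, 17.6%, 39.1%, 59.3% and 21.3%. It is a share of clusters, and the share of other genes with at least 1 such cluster was not computed. Genes with more clusters had more chances to meet the criterion. MT-RNR1 had none in the RNase I libraries, 1 of 11 with RNase T1 0.25/0.25 and 2 of 8 with 1/1. MT-RNR2 had 0 of 8, 4 of 8, 1 of 10, 1 of 14 and 3 of 15. Of the tRNA genes, 15 had one in some library and 7 in none. By library it was 5, 10, 7, 2 and 4 tRNA genes. Clusters that met the criterion and were assigned to a tRNA gene numbered 2, 3, 2, 2 and 3. The other tRNA genes met it only through a cluster assigned to a neighbouring gene. MT-TD (tRNA-Asp), which lies just before MT-CO2, was the only tRNA gene to meet it in all 5. With RNase I these were clusters of its neighbours, at 7405 to 7518 with 0.05/0.025, which shares 1 base with MT-TD, at 7353 to 8364 with 0.05/0.05 and at 7529 to 8008 with 0.1/0.025. For MT-TL1 the only such cluster was that of RNase I 0.05/0.05 which shares 1 base with it.

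Most minus-strand reads lay on tRNA genes and the control region, while many of the clusters were antisense. The clusters numbered 16, 39, 17, 8 and 18, with 5.24%, 7.53%, 4.44%, 2.45% and 3.57% of mitochondrial reads. Of the minus-strand reads 96.8%, 87.0%, 90.9%, 84.3% and 70.2% lay on tRNA genes or in the control region, and 3, 21, 3, 3 and 7 of the clusters were antisense. The tRNA-Glu cluster at chrM:14672-14730 and its counterparts led in RNase I 0.05/0.025 (203 reads), RNase I 0.05/0.05 (491), RNase T1 0.25/0.25 (34) and RNase T1 1/1 (126). With RNase I 0.1/0.025 a cluster over MT-TA, MT-TN and MT-TC, at 5653 to 5792, held 170 reads and that at MT-TE 107.

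In the control region, which holds the promoters and no annotated gene, minus-strand clusters lay between 187 and 406 in every IGF2BP3 library. The leading one held 92 reads and 93 conversion events with RNase I 0.05/0.025, 191 and 173 with 0.05/0.05, 44 and 29 with 0.1/0.025, and 16 and 14 with RNase T1 0.25/0.25. With RNase T1 1/1 the leading cluster held 29 reads and 17 events. Over all minus-strand clusters with no gene, events per read were 0.699, 0.703, 0.533, 0.875 and 0.612, above those of all mitochondrial clusters together in each library. Single clusters varied, down to 0.105 for 19 reads at 335 to 360 with RNase I 0.05/0.025. By T readings the values were 7.60%, 6.96%, 5.53%, 8.92% and 5.77%, and in RNase T1 1/1 this was below the 6.01% of all mitochondrial clusters.

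Antisense clusters held under 4% of mitochondrial reads. The share was 0.463% (0.369 to 0.580), 1.01% (0.899 to 1.13), 0.704% (0.578 to 0.856), 0.996% (0.743 to 1.34) and 3.13% (2.82 to 3.46), from 9, 26, 10, 5 and 18 clusters. The leading antisense cluster lay on the plus strand opposite MT-ND6 with RNase I 0.1/0.025 (40 reads), RNase T1 0.25/0.25 (24) and RNase T1 1/1 (65, at 14260 to 14410). With RNase I 0.05/0.025 a cluster opposite MT-ND6 held 17 reads, as many as a cluster opposite MT-TP. With RNase I 0.05/0.05 the leading cluster was opposite MT-TA (32 reads, at 5580 to 5625), and 10 further clusters with 74.0 reads lay on the minus strand opposite MT-ND5.

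In most pairs of libraries most clusters touched a cluster of the other library, while their bounds differed. The lowest value was 43.2%, for RNase I 0.05/0.05 clusters found in RNase T1 0.25/0.25. With 1 shared nt, 89.5% of the RNase I 0.05/0.025 clusters were found in 0.1/0.025 and 86.0% the other way, and 96.8% of the RNase T1 0.25/0.25 clusters in 1/1 and 68.6% the other way. With at least 50% of both clusters shared, these fell to 52.6% and 50.0%, and to 68.6% and 50.3%. Between enzymes the reciprocal overlap was at most 31.0%. The RNase I libraries covered 77.1%, 86.4% and 77.9% of the plus strand, and the RNase T1 libraries 43.2% and 60.3%. Overlap by 1 nt with lists of such coverage can arise from coverage alone and says little about shared sites. The overlap that coverage alone would give was not computed.

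Stretches covered in all 5 libraries numbered 139, of which 99 lay in protein genes, 24 in rRNA, 11 in tRNA, 3 antisense and 2 in no gene. By length, 4109 of their 6055 nt were in protein genes and 1363 in rRNA. Protein genes also make up most of the chromosome, so these counts show no preference for messages. The longest, 184 nt at 7014 to 7197, was in MT-CO1, followed by 150 nt at 9589 to 9738 in MT-CO3. The MT-ND4 stretch printed above was 115 nt long and lay within a cluster of 206 reads and 48 events with RNase T1 0.25/0.25. A stretch of 113 nt at 578 to 690 joined MT-TF and the start of MT-RNR1 and held most of the first IgG cluster.

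The IgG clusters lay where IGF2BP3 libraries had reads too. At MT-RNR1 649 to 693, IgG had 10 reads, and the matched RNase I 0.1/0.025 cluster spread over the same bases gave 90.4. At MT-TV 1611 to 1654 IgG had 23 against 157. At MT-RNR1 1441 to 1475 IgG had 15 against 10.1, with only 17.1% of these bases covered in the matched library, and at MT-RNR2 1758 to 1795 it had 12 against 14.5. The latter stretch had no cluster in either RNase T1 library. IgG thus came close to or above the matched library in 2 of the 4 places, although its cluster reads in all were far fewer.

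The nuclear genome holds copies of mitochondrial DNA, to which the same reads can align. Of the 30-nt words of chrM, 38.8% also occur without mismatch in the nuclear chromosomes, on either strand. The share was 100% in MT-TW, MT-TE and MT-TV, 71.1% in MT-CO1, 65.1% in MT-RNR1, 38.1% in MT-RNR2, 22.98% in MT-ND4, 17.2% in MT-ND5 and 7.73% in MT-CYB, and 0% in MT-TL1. The value for MT-TL1 covers exact words inside the gene alone, and this search left out shorter copies and copies with mismatches. Its clusters also run into the neighbouring genes. That at 3109 to 3263 with RNase I 0.05/0.025 had 15.1% of its words in the nuclear genome. Whole member sequences occurred in the nuclear genome for 12, 12, 21, 28 and 45 clusters with 853, 875, 1034, 496 and 1350 reads, and for 2 of the 4 IgG clusters with 25 reads.

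In the other direction, nuclear clusters carried mitochondrial sequence. Those within 3 mismatches of chrM numbered 163, 259, 170, 85 and 140, with 6772, 15414, 5805, 1863 and 5590 reads, or 41.8%, 55.4%, 41.3%, 42.2% and 49.1% of the reads on chrM. Their events per read were 0.390, 0.505, 0.430, 0.352 and 0.444, nearer to those of chrM than to those of all other clusters. Of 404 annotated mitochondrial pseudogenes 39 carried a cluster, led by MTCO1P12 and MTND2P28 on chromosome 1 and MTND4P12 on chromosome 5. MTCO1P12 held 14 clusters and 720 reads with RNase I 0.05/0.025, and 11 of the 14 were identical to chrM.

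In IgG 3 more clusters with 28 reads, on chromosomes 11 and 2, matched MT-RNR1 with at most 1 mismatch, so that 7 of its 25 clusters had mitochondrial sequence. The 3 matched 1442 to 1475, 649 to 693 and 650 to 694, where the MT-RNR1 members of IgG lie. The 7 clusters are thus not 7 separate places on chrM. How the aligner placed reads that match both genomes is not given in the sources used here, and whether a read was counted at both was not tested.

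In base makeup, T was 24.7% of the plus strand of chrM, and G was 13.1%. The tetramers CAUU and CAGU, which contain the CA dinucleotide of IGF2BP motifs, were searched as CATT and CAGT on the strand of the cluster. CAUU occurred 6.58, 6.28, 6.28, 6.57 and 7.51 times per kb of plus-strand mitochondrial clusters, against 6.10 per kb of the whole plus strand and 8.45, 7.68, 8.61, 11.6 and 11.4 in other clusters. CAGU occurred 3.05, 3.07, 3.10, 2.24 and 2.40 times per kb, against 2.96 in the whole plus strand and 6.44, 6.24, 6.62, 4.77 and 3.22 in other clusters. Both were thus rarer in mitochondrial than in other clusters in all 5 libraries. Mitochondrial clusters also held less T, at 26.0%, 26.2%, 26.0%, 26.7% and 26.6% against 32.1%, 31.0%, 31.9%, 34.7% and 34.7%. The part of base makeup in the tetramer rates was not tested.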

How the data were processed

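Clusters came from 6 libraries, each of 1 condition. Before deposit, the authors used UMI-tools 1.1.1 for molecular identifiers and duplicates, Trimmomatic 0.30 for read lengths of 18 to 45 nt and Bowtie 0.12.7 for alignment to GRCh38 (up to 3 mismatches). PARalyzer then found the clusters in every library separately. The deposited counts (reads, conversion events and non-conversion events of a cluster) were not normalized. The deposited mode score, a fraction, was not used. Only reads in clusters are given, so CPM is relative to them (182448 to 2362467 in the IGF2BP3 libraries, 324 in IgG).

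A cluster needed at least 1 shared nt with a gene. In shares, a cluster over several genes counted for the gene with the longest overlap, and for gene levels its reads were split by length. Gene events per read used every whole cluster that overlapped the gene. Words of 30 nt were searched on both strands of chromosomes 1 to 22, X and Y. Assignment and search were tested on simulated data. Versions were 3.11.15 (Python), 2.4.6 (numpy), 2.3.3 (pandas), 1.17.1 (scipy) and 3.10.9 (matplotlib). Shares have Wilson intervals.

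The text names both rRNAs, the 13 protein genes, tRNA genes with a cluster in at least 2 libraries, the 3 same-strand clusters and the antisense cluster with most reads per library, and all IgG clusters. The low-conversion tRNA clusters and those of the control region were picked after their values were seen. The members and lists were chosen with earlier results of these data known. Alternatives changed the clusters counted, the unit, the overlap and the conversion measure.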

Additional observations from a re-analysis of the deposited data

How the results depend on the processing

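No paired analysis was possible because each condition was 1 library. Values are medians over the 5 IGF2BP3 libraries, and no cause of a shift was tested. The settings without MT-TL1, with nuclear copies added, with split reads and all those of ratios were chosen after seeing the data.

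There were 100 mitochondrial clusters, 83 of at least 10 reads, 83 without exact nuclear copies and 33 with more than 0.5 events per read. The mitochondrial share of cluster reads, 1.75%, was 2.14% from clusters of at least 10 reads, 0.661% from those with more than 0.5 events per read, 0.913% by conversion events, 1.625% without exact nuclear copies, 1.305% without MT-TL1 and 2.47% with nuclear copies of up to 3 mismatches added. The rRNA share, 33.6%, was 30.5% from clusters within 1 gene, 13.02% by clusters, 10.5% above 0.5 events per read, 31.4% with reads split and 36.9% without MT-TL1. From clusters within 1 gene it was highest with RNase I 0.05/0.05 (58.9%), whose long clusters across genes drop out. The tRNA share, 7.88%, was 14.75% with reads split. The antisense share, 0.996%, was 0.572% from clusters of at least 10 reads, 0.682% above 0.5 events per read and 10% by clusters.

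Events per read on chrM, 0.335, were 0.430 as the median over clusters and 0.436 without MT-TL1, and 0.0508 of T readings were converted. The ratio of chrM to other clusters, 0.516, was 0.682 by T readings, 0.709 by medians, 0.496 in clusters of at least 100 reads and 0.677 without MT-TL1. By T readings it turned above 1 with RNase T1 1/1 (1.06), from 0.837. The level of MT-ND1 over that of MT-ND4, 2.2, turned without MT-TL1 to 0.445 with RNase I 0.05/0.025, 0.385 with 0.1/0.025 and 0.225 with RNase T1 0.25/0.25 (median 0.389), and had no value with RNase I 0.05/0.05. Events per read of protein over rRNA clusters, 1.126, turned by T readings to 0.952 with RNase I 0.05/0.025, 0.883 with 0.05/0.05 and 0.890 with RNase T1 1/1, the last also the median. The median overlap between libraries, 87.7% at 1 nt, was 28.4% at 50% reciprocal. Of 153 values of single libraries, 25 stayed within their interval or 1.5 times their count and 7 turned. The ratios of MT-ND1 to MT-ND4 and of protein to rRNA clusters had no interval, so any change counted as a shift. The share of T readings converted was set against an interval in events per read. The count of 25 is thus no measure of stability. Depth limits IgG most, with 324 cluster reads.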
